A study of Homo sapiens with 27 samples.

Results

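The genes described here are 8 genes of the TGF-beta response and of the mesenchymal matrix: TGFBI, PMEPA1, SMAD7, PRRX1, VCAN, CDH11, NPNT and PLOD2. They were chosen by symbol, with their changes in these samples already known, and each is measured by 1 probe set. They are 8 of the 17687 genes that could be named on the arrays. Because the contrasts between states were used to choose them, their differences are given as a description. Calls from the fit over all genes are counted for them only beside the share of all genes called, and support nothing. Only SMAD7 was read above background in all 9 groups, and in no line were all 8 above background.

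RNA was taken from LIM1215, SW48 and Caco2, which are human colorectal cancer cell lines with epithelial features, in 3 states with 3 arrays each. Resistant cells had survived 20 cycles of co-culture with NK-CD16 cells, which are natural killer cells that carry the antibody receptor CD16, and cetuximab, an antibody against EGFR, at 1 μg/ml. Withdrawal cells were resistant cells kept for 20 more cycles without that challenge, and parental cells were the starting line. The cells of each line were grown from a single clone, which limits a line as a model, and LIM1215 medium alone held hydrocortisone and insulin. The labels do not say that replicates were separate cultures, so errors and p-values cover the spread among these arrays, which may be technical.

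The deposited values were read as log2 intensities, a scale on which a difference of 1 is 2-fold. Levels were compared only within a line, since the median array value was 7.90 to 8.05 in LIM1215, 6.43 to 6.54 in SW48 and 6.99 to 7.08 in Caco2. Negative control probe sets set the background: a gene counts as near background in a group if its mean is below their 95th percentile. That percentile ran between 7.14 and 8.05 in LIM1215, between 6.57 and 7.24 in SW48 and between 7.50 and 8.19 in Caco2. Replicate 3 of parental LIM1215 stood apart, with a correlation of 0.987 with each of its replicates over all genes, where other replicate pairs reached 0.995 to 0.997. Of 11 measured epithelial markers, 11 were above background in LIM1215, 6 in SW48 and 8 in Caco2 in every state. Of 11 measured fibroblast markers, 0 to 2 were above background in any group: COL1A2 in withdrawal and parental LIM1215, and PDGFRA and FBLN1 in the 3 states of Caco2. NK cell transcripts moved with the resistant state. Of 26 measured NK markers, 15 were above background in resistant LIM1215, 1 in withdrawal LIM1215 and 1 in parental LIM1215. In SW48 the counts were 4 in resistant, 1 in withdrawal and 1 in parental cells, and in Caco2 they were 11, 1 and 1 in the same order of states. The summed linear level of the NK markers was 15000 to 18700 in resistant LIM1215, against 684 to 1850 in parental LIM1215. It was 1130 to 1640 in resistant SW48, against 399 to 466 in parental SW48, and 9670 to 12500 in resistant Caco2, against 1300 to 1530 in parental Caco2. The part of NK cell RNA in the results below was not tested.

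TGF-beta ligands bind a pair of receptor kinases, which phosphorylate SMAD2 and SMAD3; these enter the nucleus with SMAD4 and switch on target genes. TGFBI, a secreted matrix protein, and PMEPA1 and SMAD7, which both feed back to damp the signal, are among the classical targets. In carcinoma cells the pathway is known for restraining growth and also for driving epithelial-mesenchymal transition, in which epithelial cells take on matrix and adhesion genes of mesenchyme. PRRX1 is a homeobox transcription factor of mesenchyme. VCAN encodes versican, a large proteoglycan of loose matrix, and CDH11 a cadherin of mesenchymal cells. NPNT encodes nephronectin, a basement membrane protein that binds integrin alpha-8 beta-1. PLOD2 hydroxylates lysines at the ends of collagen chains, which sets the kind of crosslink that collagen forms.

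The 8 genes lie on 7 chromosomes of GRCh38.p14 and all are protein-coding. TGFBI lies at chr5:136028988-136063818, VCAN at chr5:83471744-83582302, PMEPA1 at chr20:57648396-57711472 and SMAD7 at chr18:48919853-48950965. PRRX1 lies at chr1:170662768-170739421, CDH11 at chr16:64943753-65123744, NPNT at chr4:105895471-105971671 and PLOD2 at chr3:146069440-146161184.

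RefSeq promoter windows of GRCh38.p14, each 250 bases before to 50 after an annotated start, were matched for 7 of the 8 genes, in 12 windows, and none for CDH11. The windows of 6 of these genes, those with the largest differences, are shown so that the promoters of genes that shared a direction in a line can be read side by side: TGFBI and PMEPA1 for LIM1215, then PMEPA1, PRRX1 and NPNT for SW48, and VCAN and PLOD2 for Caco2. Capitals mark CAGAC or its reverse complement GTCTG, which hold the core letters of a SMAD binding element. Of the 4 starts of PMEPA1, the third from the 5′ side is shown, chosen after its matches were seen.
TGFBI (chr5:136028738-136029037, + strand): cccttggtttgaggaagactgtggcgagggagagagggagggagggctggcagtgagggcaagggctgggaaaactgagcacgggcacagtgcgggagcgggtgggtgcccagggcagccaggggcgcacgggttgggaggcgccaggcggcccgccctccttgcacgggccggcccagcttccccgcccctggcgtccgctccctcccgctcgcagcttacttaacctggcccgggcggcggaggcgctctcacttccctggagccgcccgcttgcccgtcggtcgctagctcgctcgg
PMEPA1 (chr20:57709966-57710265, - strand): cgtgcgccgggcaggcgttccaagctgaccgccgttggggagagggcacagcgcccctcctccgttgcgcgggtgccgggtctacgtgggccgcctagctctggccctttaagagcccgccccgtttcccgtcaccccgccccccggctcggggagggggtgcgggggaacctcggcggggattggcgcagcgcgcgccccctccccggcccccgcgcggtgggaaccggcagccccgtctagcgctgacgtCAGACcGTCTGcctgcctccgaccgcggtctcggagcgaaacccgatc
PRRX1 (chr1:170663881-170664180, + strand): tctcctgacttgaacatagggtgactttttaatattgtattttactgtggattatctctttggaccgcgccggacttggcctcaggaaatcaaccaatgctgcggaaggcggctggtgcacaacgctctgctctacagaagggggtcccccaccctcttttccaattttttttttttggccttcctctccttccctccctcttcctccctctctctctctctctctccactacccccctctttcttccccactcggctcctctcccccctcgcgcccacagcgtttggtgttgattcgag
NPNT (chr4:105895221-105895520, + strand): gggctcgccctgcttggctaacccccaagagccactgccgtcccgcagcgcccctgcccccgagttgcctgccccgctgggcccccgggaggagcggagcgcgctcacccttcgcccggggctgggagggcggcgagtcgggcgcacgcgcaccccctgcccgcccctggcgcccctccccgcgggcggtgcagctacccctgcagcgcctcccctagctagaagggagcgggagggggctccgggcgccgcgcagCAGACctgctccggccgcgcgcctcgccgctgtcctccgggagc
VCAN (chr5:83471494-83471793, + strand): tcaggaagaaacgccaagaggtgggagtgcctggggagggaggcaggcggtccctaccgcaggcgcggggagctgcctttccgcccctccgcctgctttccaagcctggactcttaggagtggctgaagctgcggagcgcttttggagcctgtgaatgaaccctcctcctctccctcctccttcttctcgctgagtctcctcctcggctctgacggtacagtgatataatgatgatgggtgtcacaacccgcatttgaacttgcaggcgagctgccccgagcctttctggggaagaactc
PLOD2 (chr3:146161135-146161434, - strand): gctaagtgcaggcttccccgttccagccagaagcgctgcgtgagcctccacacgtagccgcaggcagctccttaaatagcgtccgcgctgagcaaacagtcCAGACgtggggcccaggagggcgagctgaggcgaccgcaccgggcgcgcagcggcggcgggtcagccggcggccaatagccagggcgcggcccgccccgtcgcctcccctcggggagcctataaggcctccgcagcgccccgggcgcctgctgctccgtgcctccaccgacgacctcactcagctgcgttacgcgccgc
CAGAC or GTCTG was found in 7 of the 12 windows, which belong to 4 genes: PMEPA1, SMAD7, NPNT and PLOD2. These letters are common, and 45.3% of all 35116 promoter windows hold them on either strand. In the printed PMEPA1 window, which has 2 matches, they begin at bases 3 and 9 after the start. The longer palindrome GTCTAGAC, present in 0.202% of all windows, was in 0 of the 12, and the AP-1 letters TGANTCA, present in 7.71%, were in 0 of the 12. The ratio of observed to expected CpG was 0.97 in the PMEPA1 window shown, 0.96 in PLOD2, 0.77 in NPNT and 0.69 in TGFBI. It was 0.59 in PRRX1 and 0.55 in VCAN, against a median of 0.58 over all windows. A match is a description of letters and not of binding.

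The pattern differed by line. In resistant LIM1215 the TGF-beta targets TGFBI and PMEPA1 lay near background. In resistant SW48 PMEPA1, PRRX1 and NPNT did, and in resistant Caco2 VCAN and PLOD2 did. All of these were well above background in the parental and withdrawal cells of the same line. In bulk RNA, fewer cells that hold a transcript and less of it per cell cannot be told apart.

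**Figure D1:**
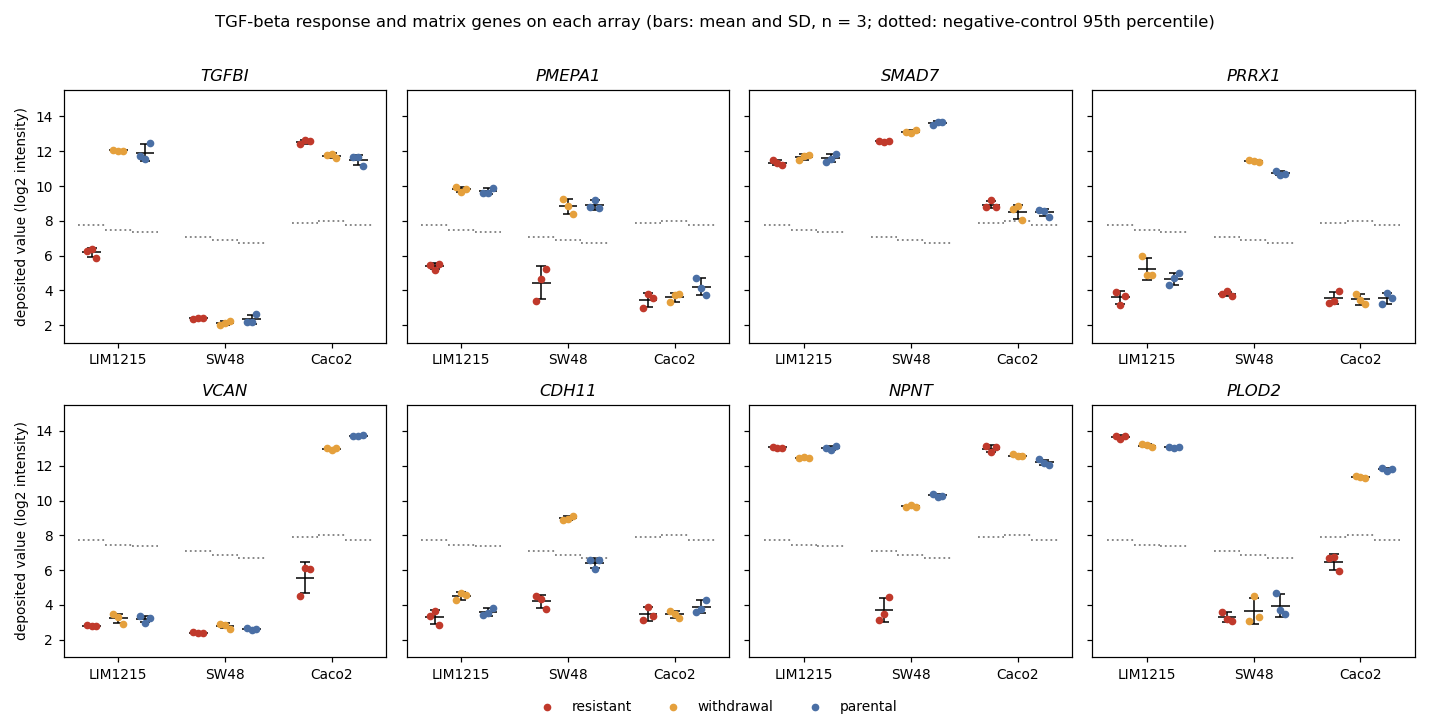
Deposited log2 intensity (vertical axis) of the 8 genes on each of the 27 arrays, by line and by state (resistant, withdrawal, parental), with the mean and SD of each group (n = 3) as black bars and the mean negative-control percentile of each group as a dotted line. TGFBI falls under the dotted line in resistant LIM1215 and lies above it in all 3 states of Caco2, while VCAN lies above it only in withdrawal and parental Caco2.

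TGFBI read 6.29, 6.40 and 5.87 in resistant LIM1215 and 12.07, 12.03 and 12.04 in withdrawal LIM1215, against 11.72, 11.58 and 12.46 in parental LIM1215. The resistant arrays lay below all others of the line, and the withdrawal arrays lay within the parental range. The log2 difference between resistant and parental LIM1215 was -5.73 (SE 0.188), or at least 18.1-fold lower, and it was -5.47 without parental replicate 3. Withdrawal cells were at least 19.7-fold above resistant cells (5.86 on the log2 scale) and differed from parental cells by 0.13, or by 0.39 without parental replicate 3. Caco2 ran the other way. TGFBI read 12.42, 12.65 and 12.58 in resistant Caco2 and 11.79, 11.84 and 11.60 in withdrawal Caco2, against 11.68, 11.67 and 11.18 in parental Caco2. All 3 resistant Caco2 arrays lay above the other 6, by 1.04 on the log2 scale over parental cells (SE 0.188, 2.06-fold), and the withdrawal and parental arrays overlapped (difference 0.24). In SW48 all 9 arrays lay between 2.00 and 2.63, near background.

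PMEPA1 encodes a membrane protein that is induced by TGF-beta and holds receptor-activated SMADs away from the receptor. It read 5.49, 5.19 and 5.53 in resistant LIM1215 and 9.94, 9.67 and 9.85 in withdrawal LIM1215, against 9.61, 9.58 and 9.91 in parental LIM1215. It read 3.40, 4.67 and 5.25 in resistant SW48 and 9.28, 8.84 and 8.42 in withdrawal SW48, against 8.79, 9.22 and 8.73 in parental SW48. In both lines the resistant arrays lay near background and below all others, and the withdrawal and parental arrays overlapped. Resistant minus parental was -4.30 in LIM1215 (SE 0.33, at least 3.89-fold lower) and -4.48 in SW48 (SE 0.33, at least 3.56-fold lower). Withdrawal cells were above resistant cells by 4.42 in LIM1215 (at least 4.22-fold) and by 4.41 in SW48 (at least 3.41-fold). The gap between the withdrawal and parental means was 0.12 in LIM1215 and -0.06 in SW48, under the SE of 0.33 in each. In Caco2 the gene was near background on all 9 arrays, at group means of 3.45 in resistant, 3.61 in withdrawal and 4.21 in parental cells.

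SMAD7 is the inhibitory SMAD that docks on the activated receptor and brings in ubiquitin ligases of the SMURF family. It was the only gene of the 8 above background in every group. In SW48 it read 12.60, 12.55 and 12.57 in resistant and 13.12, 13.06 and 13.20 in withdrawal cells, against 13.53, 13.69 and 13.70 in parental cells. The 3 states of SW48 did not overlap, and the withdrawal arrays lay between the others. Resistant minus parental was -1.07 (SE 0.167, 2.1-fold lower), and withdrawal minus parental was -0.51 (SE 0.167, 1.43-fold lower). In Caco2 it read 8.81, 9.17 and 8.80 in resistant and 8.66, 8.83 and 8.06 in withdrawal cells, against 8.62, 8.58 and 8.22 in parental cells. The resistant arrays of Caco2 lay above the parental ones by 0.45 (SE 0.167, 1.37-fold) and overlapped the withdrawal ones. These levels were little over background, with group means of 8.48 to 8.93 against background means of 7.76 to 7.99. Withdrawal replicate 3, at 8.06, lay under the 8.19 of its array. In LIM1215 the 3 states overlapped, with 11.48, 11.35 and 11.23 in resistant, 11.48, 11.75 and 11.77 in withdrawal and 11.37, 11.58 and 11.85 in parental cells, and resistant minus parental was -0.25 (SE 0.167). In LIM1215 the log2 difference of SMAD7 was thus far smaller than those of TGFBI and PMEPA1 on the same arrays.

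PRRX1 was above background only in SW48. It read 3.77, 3.94 and 3.69 in resistant SW48 and 11.50, 11.45 and 11.38 in withdrawal SW48, against 10.86, 10.64 and 10.70 in parental SW48. The resistant arrays lay far below the others, and all 3 withdrawal arrays lay above all 3 parental ones. Resistant minus parental was -6.94 (SE 0.255, at least 12.6-fold lower), withdrawal minus resistant was 7.64 (SE 0.255, at least 20.6-fold higher) and withdrawal minus parental was 0.71 (SE 0.255, 1.63-fold higher). In LIM1215 the group means were 3.60 in resistant, 5.24 in withdrawal and 4.68 in parental cells, all near background, and with values under background raised to it the differences between resistant and the other cells there changed sign. In Caco2 they were 3.54, 3.48 and 3.55.

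NPNT was high in all 3 states of LIM1215 and Caco2 and differed widely between states in SW48. In SW48 it read 3.16, 3.47 and 4.46 in resistant and 9.64, 9.77 and 9.64 in withdrawal cells, against 10.38, 10.22 and 10.28 in parental cells. The 3 states did not overlap, with the withdrawal arrays just under the parental ones. Resistant minus parental was -6.59 (SE 0.198, at least 9.27-fold lower), and withdrawal minus parental was -0.61 (SE 0.198, 1.53-fold lower). In LIM1215 it read 13.09, 13.02 and 13.04 in resistant and 12.46, 12.52 and 12.42 in withdrawal cells, against 13.03, 12.92 and 13.14 in parental cells. There the resistant and parental arrays overlapped, while the withdrawal arrays lay below the parental ones by 0.57 (withdrawal minus parental -0.57, SE 0.198). In Caco2 it read 13.12, 12.77 and 13.07 in resistant and 12.67, 12.54 and 12.54 in withdrawal cells, against 12.36, 12.18 and 12.07 in parental cells. Resistant Caco2 lay above parental Caco2 by 0.78 (SE 0.198, 1.72-fold), with the withdrawal arrays between the others.

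CDH11 was above background in 1 of the 9 groups, withdrawal SW48. It read 4.53, 4.32 and 3.79 in resistant SW48 and 8.88, 8.96 and 9.10 in withdrawal SW48, against 6.57, 6.08 and 6.56 in parental SW48. The withdrawal arrays lay above all others, at least 4.78-fold above parental cells (2.58 on the log2 scale, SE 0.235) and at least 3.73-fold above resistant cells (4.76). The resistant arrays lay below the parental ones by 2.19 on the log2 scale (resistant minus parental -2.19), but both groups were near background, and with values under background raised to it that difference was 0.36. In LIM1215 its group means were 3.31 in resistant, 4.51 in withdrawal and 3.59 in parental cells, and in Caco2 they were 3.45, 3.46 and 3.90.

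VCAN was above background only in withdrawal and parental Caco2. It read 4.53, 6.13 and 6.05 in resistant Caco2 and 13.02, 12.91 and 13.02 in withdrawal Caco2, against 13.71, 13.72 and 13.74 in parental Caco2. The 3 states did not overlap. Resistant minus parental was -8.15 (SE 0.253), or at least 57.3-fold lower, and withdrawal minus resistant was 7.41 (SE 0.253, at least 34.3-fold higher). Withdrawal cells stayed 1.67-fold under parental cells (-0.74, SE 0.253). The summed linear level of the fibroblast markers in Caco2 was 35600 to 39700 in resistant and 44500 to 46000 in withdrawal cells, against 40800 to 42600 in parental cells, and their part in these differences was not tested. In LIM1215 and SW48 its group means lay between 2.41 and 3.22.

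PLOD2 shared that pattern in Caco2. It read 6.70, 6.78 and 5.97 in resistant Caco2 and 11.40, 11.37 and 11.28 in withdrawal Caco2, against 11.85, 11.72 and 11.83 in parental Caco2. Again the 3 states did not overlap, and the resistant arrays were near background. Resistant minus parental was -5.32 (SE 0.289, at least 15.1-fold lower), withdrawal minus resistant was 4.87 (SE 0.289) and withdrawal minus parental was -0.45 (SE 0.289). In LIM1215, where the gene was high throughout, it read 13.69, 13.54 and 13.73 in resistant and 13.23, 13.17 and 13.08 in withdrawal cells, against 13.06, 13.04 and 13.05 in parental cells. The resistant LIM1215 arrays lay above all others of the line, 0.61 above the parental mean (SE 0.289, 1.52-fold). In SW48 the gene was near background in all 3 states.

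**Figure D2:**
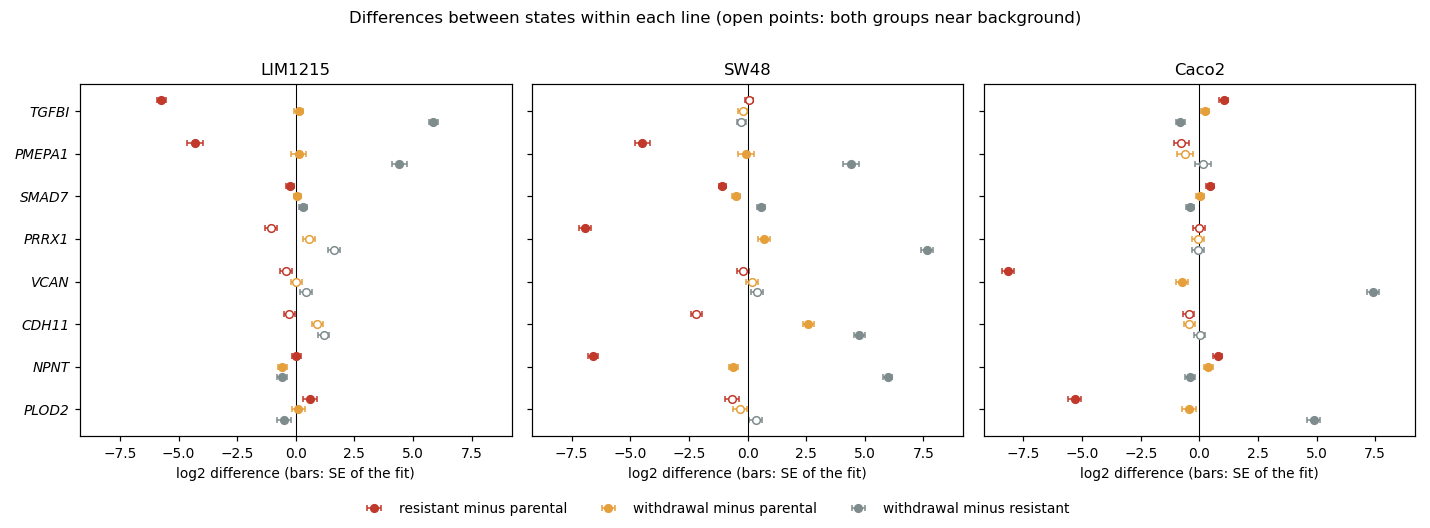
Log2 differences (horizontal axis, with the SE of the fit) of the 8 genes in each line for resistant minus parental, withdrawal minus parental and withdrawal minus resistant, with open points where both groups were near background. The largest negative points are resistant minus parental and the largest positive ones withdrawal minus resistant, and the withdrawal minus parental points lie between -0.74 and 2.58.

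A gene was called when its adjusted p, from limma over all 17687 genes with Benjamini-Hochberg adjustment, was under 0.05. Between resistant and parental cells, 3 of the 8 were called in LIM1215, where 10.8% of all genes were called, 5.42% higher and 5.39% lower. TGFBI and PMEPA1 were lower, and the other, PRRX1, was near background in both groups and has no direction. In SW48 5 of the 8 were called, where 22.7% of all genes were, 10.9% higher and 11.8% lower. Of these 4 were lower, and CDH11 was near background in both groups. In Caco2 3 were called higher and 2 lower, where 27.4% of all genes were, 12.9% higher and 14.5% lower. Between withdrawal and parental cells, 2 were called in LIM1215, NPNT, which was lower, and CDH11, near background in both groups, where 21.1% of all genes were called, 9.89% higher and 11.2% lower. In SW48 1 was called higher, where 4.08% of all genes were, 1.78% higher and 2.3% lower. In Caco2 0 were called by limma, where 5.28% of all genes were, 2.73% higher and 2.54% lower, and 1 of the 8 had an unadjusted p under 0.05 and 0 were called with the trend and robust model. Between withdrawal and resistant cells, 5 were called in LIM1215, where 27.9% of all genes were called, 13.6% higher and 14.4% lower. TGFBI and PMEPA1 were higher and NPNT lower, while PRRX1 and CDH11 were near background in both groups. In SW48 5 were called higher, where 22.2% of all genes were, 11.1% in each direction, and in Caco2 2 higher and 1 lower, where 24.7% of all genes were, 12.1% higher and 12.5% lower. The arrays of resistant and parental cells did not overlap for 5 of the 8 in LIM1215 (23.7% of all genes), 6 in SW48 (35.5%) and 5 in Caco2 (39.9%). Those of withdrawal and parental cells did not overlap for 3 in LIM1215 (31.6%), 4 in SW48 (22.1%) and 3 in Caco2 (23.4%), and those of withdrawal and resistant cells for 7 in LIM1215 (46.0%), 7 in SW48 (35.5%) and 4 in Caco2 (38.9%). These contrasts chose the genes, so the counts are read no further. In each contrast 4 or 5 of the 8 were above background in at least 1 of its groups. The count of 2 for withdrawal against parental LIM1215, CDH11 and NPNT, dropped to 1 when any 1 array of LIM1215 was left out, and also without some arrays of the other lines. The comparisons of a line share their groups, so the side by side values of a gene are not independent of each other.

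Some of the 8 moved alike across arrays, mostly within a single line, and some did not. Over the 27 arrays, after the mean of each line was subtracted, the Pearson correlation was 0.95 between VCAN and PLOD2, 0.929 between PRRX1 and NPNT and 0.851 between PRRX1 and CDH11. It was 0.638 between TGFBI and PMEPA1 and 0.607 between PMEPA1 and SMAD7. The lines taken singly differed. VCAN and PLOD2 correlated at 0.986 in Caco2, -0.654 in LIM1215 and 0.346 in SW48. PRRX1 and NPNT correlated at 0.979 in SW48, -0.639 in LIM1215 and 0.00762 in Caco2. For PRRX1 and CDH11 the values were 0.879 in SW48, 0.633 in LIM1215 and 0.239 in Caco2. VCAN was near background in LIM1215 and SW48, and PRRX1 in LIM1215 and Caco2. Within the 9 arrays of LIM1215, TGFBI and PMEPA1 correlated at 0.995, and in Caco2 TGFBI and VCAN correlated at -0.917. These are descriptions, since the arrays share their lines and states.

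Among 10499 genes above background in at least 1 group, those whose line-centred pattern was most like each of the 8 were ranked by Pearson correlation over the same 27 arrays. TGFBI was followed most closely by PTGS2, the inducible cyclooxygenase (0.976), and PHLDA1 (0.943). PTGS2 differed by -3.27 between resistant and parental LIM1215, by 0.01 in SW48 and by 0.44 in Caco2. PMEPA1 was followed by NUDT4P2 and NUDT4 (0.955 and 0.946), near-identical copies whose signals may be shared, and by AHR, the aryl hydrocarbon receptor (0.932). SMAD7 had weaker matches, with LAD1, an anchoring filament protein, at 0.856. PRRX1 was matched by CMKLR2, DAPK1 and PRSS12 (0.97, 0.968 and 0.968), and NPNT by GLMP (0.972). VCAN was matched by the homeobox gene IRX3 (0.97) and RBMS3 (0.969), PLOD2 by NCKAP5 (0.954) and the matrix proteoglycan FMOD (0.952), and CDH11 by KPNA4 (0.909). With Spearman correlation 0 of the 3 nearest genes were shared for TGFBI, VCAN and PLOD2, and 1 of 3 for PRRX1 and NPNT.

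The wider pathway was read from 8 lists of ligands, receptors, SMADs, SMAD target genes, matrix genes, epithelial-mesenchymal regulators and collagen-modifying enzymes, with 169 of 186 listed genes measured and the 8 genes above left out. Between resistant and parental cells, 12 were called higher and 25 lower in LIM1215 (21.9% called, beside 10.8% of all genes; median log2 difference -0.08, beside -0.03). In SW48 32 were called higher and 13 lower (26.6%, beside 22.7%; median 0.07), and in Caco2 28 were called higher and 26 lower (32.0%, beside 27.4%; median 0.03, beside -0.03). Only 85 to 90 of the 169 were above background in a group of those contrasts. Among these, 7 of 87 rose and 20 fell in LIM1215. In SW48 25 of 85 rose and 11 fell, and in Caco2 23 of 90 rose and 19 fell. Over all genes above background in a group, 637 of 9415 rose and 702 fell in LIM1215. The same counts were 1604 and 1798 of 8813 in SW48, and 1611 and 1904 of 8502 in Caco2. For a call between groups near background the direction is only that of the fit. Without LIM1215 parental replicate 3 the LIM1215 count was 53 in place of 37. The shares given for each list below are to be read beside the same 10.8%, 22.7% and 27.4% of all genes. Lists hold genes that act in opposite ways, such as SMADs and their inhibitors. Their counts of rise and fall therefore give no direction of the pathway.

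**Figure D3:**
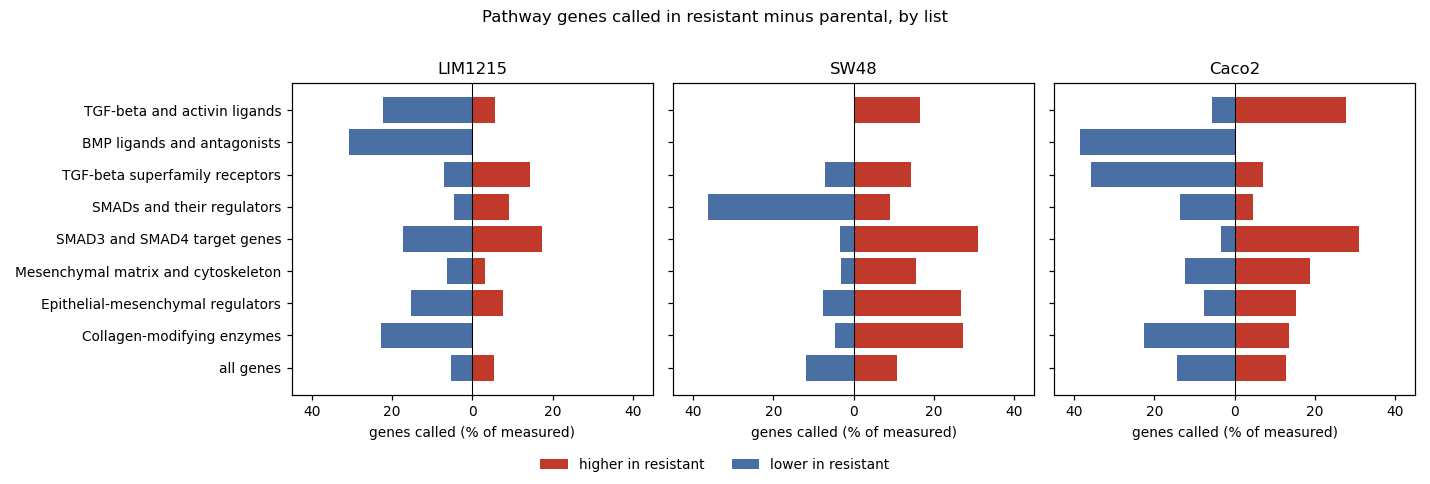
Share of the measured genes of each pathway list called between resistant and parental cells (horizontal axis, percent of measured genes; right of 0 higher in resistant, left of 0 lower), beside the same share over all genes, in the 3 lines. The SMAD target bars point to higher in SW48 and Caco2, with 9 genes each against 1 lower, and are even in LIM1215, with 5 in each direction. Bars count calls and do not measure pathway output.

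Of 18 TGF-beta and activin ligands and binding proteins, 5 were called in resistant LIM1215 (27.8%), 3 in SW48 (16.7%) and 6 in Caco2 (33.3%). Among those above background in a group, 3 fell in LIM1215, 2 rose in SW48, and 3 rose and 1 fell in Caco2. TGFB1, the main ligand in epithelium, read 11.78, 11.55 and 11.76 in resistant LIM1215, against 12.61, 12.41 and 12.67 in parental LIM1215, and fell by 0.87 on the log2 scale (SE 0.157, limma adjusted p 0.000398). It was not called between these states in SW48 (-0.03) or in Caco2 (0.31, adjusted p 0.169). GDF15, a stress-induced relative of TGF-beta, fell in LIM1215 (-1.07, SE 0.166) and rose in SW48 (1.01) and Caco2 (0.77). In Caco2 INHBB, a chain of activin, rose 5.14-fold (2.36, SE 0.2, adjusted p 2.85e-09), and LTBP1, which tethers latent TGF-beta to the matrix, fell 2.97-fold (-1.57, SE 0.226). TGFB3 rose in Caco2 by 1.34 (SE 0.395, adjusted p 0.0127), a call lost without parental replicate 3 (adjusted p 0.0716; all other alternatives gave lower values). Of 13 BMP ligands and antagonists, 4 were called in LIM1215 (30.8%), 0 by limma in SW48 and 5 in Caco2 (38.5%). In SW48 2 had an unadjusted p under 0.05 and 0 were called with the trend and robust model. Those above background in a group that were called all fell, 2 in LIM1215 and 4 in Caco2. The Caco2 call of BMP2 (-0.65, limma adjusted p 0.0464) was lost in 20 of 34 alternatives. BMP4 fell in LIM1215 (-0.74, SE 0.103) and in Caco2 (-0.49, SE 0.103).

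Of 14 receptors measured, 3 were called in resistant LIM1215 (21.4%), 3 in SW48 (21.4%) and 6 in Caco2 (42.9%). Of genes above background in a group, 2 rose and 1 fell in LIM1215, 1 rose and 1 fell in SW48, and 1 rose and 3 fell in Caco2. TGFBR2, the ligand-binding kinase, read 9.97, 10.32 and 9.70 in resistant LIM1215, against 10.49, 10.65 and 10.56 in parental LIM1215. The resistant arrays lay below the parental ones (-0.57, SE 0.152, adjusted p 0.0139), a call lost with the LIM1215 arrays alone, without parental replicate 2 or without resistant replicate 3 (adjusted p up to 0.114). TGFBR1, its signalling partner, was not called between resistant and parental cells in any line (-0.34 in LIM1215, -0.08 in SW48 and -0.35 in Caco2). It fell in withdrawal LIM1215, which read 9.30, 9.27 and 9.49, against 11.52, 11.69 and 10.47 in parental LIM1215 (-1.87, SE 0.19, adjusted p 7.25e-07). In resistant Caco2 the type I receptor ACVR1 fell by 2.10 on the log2 scale (SE 0.279, at least 1.18-fold) and the type II receptor ACVR2B fell by 1.82 (SE 0.274, at least 1.86-fold).

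Of 22 SMADs and their regulators, 3 were called in resistant LIM1215 (13.6%), 10 in SW48 (45.5%) and 4 in Caco2 (18.2%). With only genes above background in a group counted, 1 rose and 1 fell in LIM1215, 2 rose and 7 fell in SW48, and 1 rose and 3 fell in Caco2. SMAD2 and SMAD4, the shared core of the pathway, were not called between resistant and parental cells in any line, with differences between -0.32 and 0.14. SMAD3 rose in Caco2, which read 10.06, 10.29 and 10.37 in resistant, against 9.54, 9.87 and 9.18 in parental cells (0.71, SE 0.162, adjusted p 0.00169). SMURF2, the ubiquitin ligase that works with SMAD7, read 14.77, 14.58 and 14.61 in resistant SW48 and 11.33, 11.55 and 11.19 in withdrawal SW48, against 10.48, 10.56 and 10.71 in parental SW48. It rose 16.8-fold in resistant SW48 (4.07, SE 0.155, adjusted p 3.58e-15), and withdrawal cells stayed 1.71-fold above parental cells (0.77, adjusted p 0.00454). In the other lines SMURF2 fell by 0.85 in resistant LIM1215 and fell by 1.02 in resistant Caco2 (SE 0.155 each). TRIM33, a SMAD4 ubiquitin ligase, fell in SW48 (-1.14, SE 0.121), as did TGIF2, a SMAD corepressor (-0.96, SE 0.131). SMAD6, the inhibitory SMAD of the BMP branch, rose in SW48 by 0.92 (SE 0.257, adjusted p 0.01), a call lost without parental replicate 1 (adjusted p 0.0593, the highest of 34 alternatives).

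Of 29 SMAD3 and SMAD4 target genes, 10 were called in each line (34.5%). Among those above background in a group, 3 rose and 5 fell in LIM1215, 9 rose and 0 fell in SW48, and 8 rose and 0 fell in Caco2. The 3 that rose in LIM1215 were CCN1 (1.84), ID3 (0.84) and ID2 (0.47), and ID2 also rose in SW48 (1.11). The list does not separate genes that the pathway raises from genes that it lowers, so these counts do not measure its output. The matricellular gene CCN1 read 13.66, 13.59 and 13.61 in resistant SW48, against 10.27, 10.09 and 9.78 in parental SW48. It rose 11.9-fold there (3.57, SE 0.296, adjusted p 3.48e-09), 3.59-fold in LIM1215 (1.84, SE 0.296) and 2.23-fold in Caco2 (1.16, SE 0.296). Its relative CCN2 was not called between resistant and parental cells in LIM1215 (-0.07), SW48 (0.07, near background) or Caco2 (0.42). In Caco2 the cell cycle inhibitor CDKN1A rose by 3.66 (SE 0.204, at least 2.53-fold), the AP-1 gene JUNB by 2.93 (SE 0.295, 7.63-fold) and BHLHE40, a transcriptional repressor, by 2.79 (SE 0.383, 6.93-fold). IGFBP3, which binds insulin-like growth factors, fell by 1.36 in LIM1215 (SE 0.156, 2.57-fold). These directions stood beside TGFBI and PMEPA1, which were lower in resistant LIM1215, and PMEPA1, which was lower in resistant SW48.

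Of 32 mesenchymal matrix and cytoskeleton genes, 3 were called in resistant LIM1215, 6 in SW48 and 10 in Caco2. As shares of the list, these counts lay under the 10.8% of all genes in LIM1215 and the 22.7% in SW48. In Caco2 the share lay above the 27.4% of all genes. Of genes above background in a group, 0 rose and 2 fell in LIM1215, 3 rose and 0 fell in SW48, and 5 rose and 2 fell in Caco2. Most were dim: 3 of the 32 were above background in those states of LIM1215, 4 in SW48 and 11 in Caco2. In Caco2, where VCAN was high in parental cells, the intermediate filament gene VIM read 9.51, 9.51 and 10.01 in resistant and 11.15, 11.14 and 11.21 in withdrawal cells, against 12.01, 11.96 and 11.86 in parental cells. It fell 4.81-fold in resistant Caco2 (-2.27, SE 0.262, adjusted p 3.96e-07). Fibronectin, FN1, fell 2.21-fold in resistant Caco2 (-1.15, SE 0.196). Others of the list rose there, among them S100A4 by 2.44 and FBLN5 by 2.17, the latter from near background in parental cells. The summed NK markers were also higher in resistant than in parental Caco2, and the part of NK cell RNA in these rises was not tested. The protease inhibitor TIMP1 fell by 3.49 in LIM1215 (SE 0.236, at least 7.43-fold) and rose in Caco2 by 2.56 (SE 0.236, 5.91-fold). NK cells also carry VIM, and in LIM1215 it read 7.68, 7.21 and 6.57 in resistant cells, against 4.18, 3.73 and 3.70 in parental cells, both near background by their means.

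Of 26 epithelial-mesenchymal regulators, 6 were called in resistant LIM1215 (23.1%), 9 in SW48 (34.6%) and 6 in Caco2 (23.1%). With only genes above background in a group counted, 1 rose and 3 fell in LIM1215, 5 rose and 2 fell in SW48, and 2 rose and 2 fell in Caco2. The list holds keepers of epithelial identity beside repressors of CDH1, so a rise or fall in these counts has no single meaning. CDH1, the epithelial cadherin, was not called between resistant and parental cells in any line, with differences of 0.00 in LIM1215, -0.15 in SW48 and 0.14 in Caco2. ZEB1, a repressor of CDH1, was near background in all 9 groups. PRRX2, the paralog of PRRX1, was also near background in all 9 groups. TCF4, a basic helix-loop-helix factor, fell 5.45-fold in resistant LIM1215 (-2.45, SE 0.187), and SNAI1, a repressor of CDH1, fell by 1.81 (SE 0.303, at least 2.82-fold). GRHL2, a keeper of epithelial identity, fell in SW48 (-0.65, SE 0.151) and in Caco2 (-1.05, SE 0.151). Other genes of this list went the other way in resistant SW48, where OVOL1 rose by 1.07 and GRHL3 by 0.80. GRHL3 fell by 1.24 in resistant LIM1215. ETS1, a transcription factor that lymphocytes also carry, read 8.83, 8.30 and 7.90 in resistant Caco2, against 2.91, 3.28 and 3.13 in parental Caco2, and rose by 5.24 (SE 0.293, at least 1.5-fold).

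Of 22 collagen-modifying enzymes, 5 were called in resistant LIM1215 (22.7%), 7 in SW48 (31.8%) and 8 in Caco2 (36.4%). Among those above background in a group, 0 rose and 4 fell in LIM1215, 5 rose and 1 fell in SW48, and 3 rose and 4 fell in Caco2. PLOD1, a paralog of PLOD2, fell by 0.41 in resistant LIM1215 and rose in SW48 by 0.33 and in Caco2 by 0.55 (SE 0.0917 each), while PLOD2 itself was 5.32 lower in resistant Caco2 on the log2 scale. PLOD3 rose in SW48 by 0.86 (SE 0.221, adjusted p 0.00548) and was not called in LIM1215 (-0.46) or Caco2 (0.22). The prolyl 3-hydroxylase P3H2 fell by 3.17 in LIM1215 (SE 0.239, at least 2.82-fold) and fell by 1.88 in Caco2 (SE 0.239, 3.67-fold). Of 39 measured paralogs and partners of the 8, 4 were called in resistant LIM1215 (10.3%), 8 in SW48 (20.5%) and 8 in Caco2 (20.5%). These shares lay under the 10.8%, 22.7% and 27.4% of all genes. Of genes above background in a group, 0 rose and 3 fell in LIM1215, 7 rose and 1 fell in SW48, and 4 rose and 2 fell in Caco2. ITGA8, the alpha chain of the nephronectin receptor, and POSTN, the paralog of TGFBI, were near background in all 9 groups. LDLRAD4, the paralog of PMEPA1, was near background in all 9 groups as well.

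After withdrawal, the share of pathway genes called against parental cells was highest in LIM1215, as was the share of all genes. Between withdrawal and parental cells, 26 of the 169 were called higher and 23 lower in LIM1215 (29.0%, beside 21.1% of all genes), 11 higher and 2 lower in SW48 (7.69%, beside 4.08%), and 5 higher and 7 lower in Caco2 (7.1%, beside 5.28%). With only genes above background in a group counted, 23 of 88 rose and 17 fell in LIM1215. In SW48 11 of 86 rose and 2 fell, and in Caco2 3 of 86 rose and 4 fell. Over all genes above background in a group, 1481 of 9427 rose and 1665 fell in LIM1215. The same counts were 279 and 345 of 8741 in SW48, and 352 and 287 of 8278 in Caco2. The counts of pathway genes depended on single arrays. The 49 of LIM1215 became 30 without parental replicate 1 and 29 without parental replicate 2. The 13 of SW48 became 7 without SW48 parental replicate 2 and 20 without LIM1215 parental replicate 3, and the 12 of Caco2 became 21 without that same LIM1215 array. IGFBP3 read 14.59, 14.61 and 14.68 in withdrawal LIM1215, against 12.50, 12.52 and 12.51 in parental LIM1215, and rose 4.33-fold above the parental level (2.12, SE 0.156, adjusted p 1.73e-08). It was also higher in withdrawal than in parental SW48 (1.45, SE 0.156). In withdrawal Caco2 TGFB1 fell below parental cells by 0.95 (SE 0.157, adjusted p 0.000436). Between withdrawal and resistant cells, 37 were called higher and 19 lower in LIM1215 (33.1%, beside 27.9% of all genes), 22 higher and 25 lower in SW48 (27.8%, beside 22.2%), and 24 higher and 31 lower in Caco2 (32.5%, beside 24.7%). Among those above background in a group, 32 of 86 rose and 12 fell in LIM1215. In SW48 19 of 88 rose and 22 fell, and in Caco2 18 of 87 rose and 25 fell. Over all genes above background in a group, 1880 of 9368 rose and 1984 fell in LIM1215. The same counts were 1694 and 1620 of 8693 in SW48, and 1537 and 1561 of 8307 in Caco2. The NK marker sums were 1610 to 1680 in withdrawal LIM1215, 839 to 935 in withdrawal SW48 and 2190 to 2250 in withdrawal Caco2.

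Of the 169 pathway genes, 12 were called in opposite directions between resistant and parental cells in at least 2 lines, in 17 pairs of lines. These were picked for their opposite signs, so the gaps between lines are given as a description. SMURF2 rose by 4.07 in resistant SW48, fell by 0.85 in resistant LIM1215 and fell by 1.02 in resistant Caco2. TIMP1 fell at least 7.43-fold in resistant LIM1215, where it was near background, and rose 5.91-fold in resistant Caco2. CDKN1A fell by 0.80 in resistant LIM1215 (SE 0.204) and rose at least 2.53-fold in resistant Caco2, where parental cells were near background. TIMP3, another protease inhibitor, fell 5.18-fold in resistant LIM1215 and rose 1.85-fold in resistant Caco2. Its resistant LIM1215 arrays read 7.47, 8.33 and 7.45, around the mean background of 7.75, so the 5.18-fold is not exact. SMAD9, a SMAD of the BMP branch, read 7.99, 8.15 and 7.95 in resistant LIM1215, against 5.81, 5.98 and 5.47 in parental LIM1215, which were near background. It rose at least 1.6-fold there and fell 1.88-fold in resistant SW48. For the 8 genes themselves, TGFBI, SMAD7, NPNT and PLOD2 also lay on opposite sides in different lines, and those differences were not tested.

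**Figure D4:**
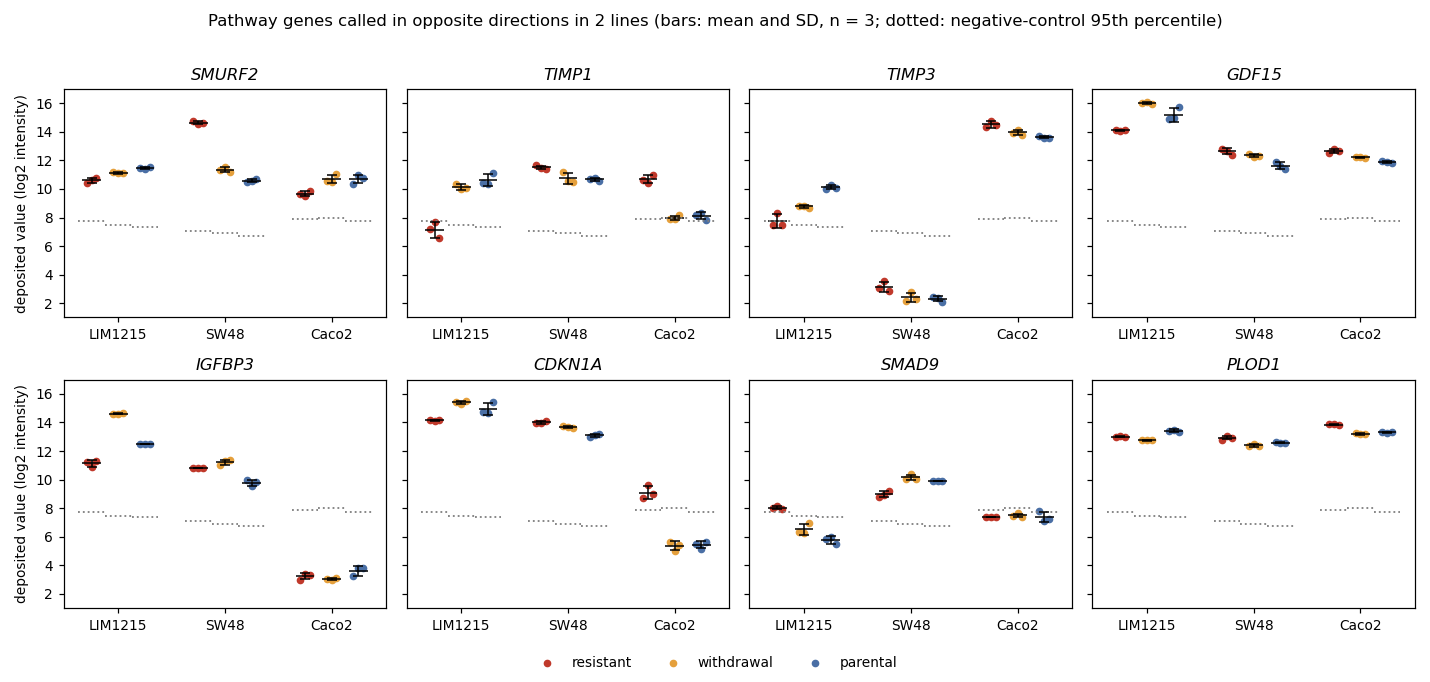
Deposited log2 intensity (vertical axis) of 8 pathway genes called in opposite directions in at least 2 lines, on each array by line and state (resistant, withdrawal, parental), with the mean and SD of each group (n = 3) and the mean negative-control percentile as a dotted line. Within SW48, SMURF2 is highest in resistant cells, at 14.58 to 14.77, and within LIM1215, TIMP1 is lowest in resistant cells, near the dotted line at 6.58 to 7.67.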

How the data were processed

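Total RNA (250 ng) was labelled and hybridised to whole-transcript arrays, 27 in all, per the labels' protocols. The deposited values were read as log2 intensities from their range (1.09 to 18.78); no source used here gives the software, background correction or normalization, and the values were used as deposited. Of 21448 transcript probe sets, 17709 had a gene symbol, and the brightest of each gene was kept (17687 genes, no filter). A mean per group was fitted to the 27 arrays with limma 3.58.1 (lmFit, eBayes) in R 4.3.3 and its two-sided p-values were adjusted by Benjamini-Hochberg across the 17687 genes of a contrast, after a check on simulated data. SE values are those of the fit. Folds against a group near background are lower bounds over the negative-control percentile. Figures were drawn with matplotlib 3.10.9 under Python 3.11.15.

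The 8 genes, the lists and the tests were chosen with earlier results of these data known, so no count over them is independent evidence. Named pathway genes were those called with the largest log2 difference in each list and direction (up to 3 for resistant minus parental, up to 2 otherwise), with arrays not overlapping and a group above background, of which examples are given, plus a set of core pathway genes. Some listed genes were not analysed here. Equal replicate numbers did not pair the samples: same-numbered arrays of different states correlated at -0.041 to 0.075 in their deviations, none over 0.1. Arrays give no counts, and their number sets the precision. Alternatives were quantile normalization, equal medians, a dim-gene filter, all probe sets, the mean over probe sets, 1 line at a time, another variance model, a replicate block, values raised to background, and leaving out each array.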

Additional observations from a re-analysis of the deposited data

Results flagged for a closer look

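Of the 8 genes, 4 had every array on one side in a line and every array on the other side in another line; these differences between lines were not tested. TGFBI was 1.04 higher in resistant than in parental Caco2 and at -5.73 in LIM1215, and withdrawal minus resistant was -0.81 in Caco2 and 5.86 in LIM1215. SMAD7 differed between resistant and parental cells by 0.45 in Caco2, where it was little over background, and by -1.07 in SW48. NPNT differed between resistant and parental cells by 0.78 in Caco2 and by -6.59 in SW48. Its withdrawal minus parental value was 0.38 in Caco2, -0.57 in LIM1215 and -0.61 in SW48, and its withdrawal minus resistant value was 5.98 in SW48, -0.59 in LIM1215 and -0.40 in Caco2. PLOD2 differed between resistant and parental cells by 0.61 in LIM1215 and by -5.32 in Caco2, between withdrawal and parental cells by 0.11 in LIM1215 and by -0.45 in Caco2, and between withdrawal and resistant cells by 4.87 in Caco2 and by -0.50 in LIM1215.

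For 12 pathway genes, resistant minus parental was called in opposite directions in 2 lines. They were picked for those signs, so the gap between lines is large by that choice and is given as a value only, and gaps that rest on a group near background (such as those of TIMP1 and CDKN1A in Caco2 or LIM1215, and SMAD9) are not exact. The same holds for TIMP3, which lay around background in resistant LIM1215. LIM1215 minus SW48 was -1.72 for CDKN1A, -2.08 for GDF15, -2.05 for GRHL3, -2.42 for IGFBP3, -0.74 for PLOD1, -1.12 for SERPINH1, 3.19 for SMAD9, -4.92 for SMURF2 and -4.33 for TIMP1. LIM1215 minus Caco2 was -4.46 for CDKN1A, -1.84 for GDF15, -0.95 for PLOD1, -6.06 for TIMP1 and -3.26 for TIMP3. SW48 minus Caco2 was 0.96 for CRTAP, 5.09 for SMURF2 and 1.59 for TCF3.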

How the results depend on the processing

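Differences of the 8 genes were compared with the main fit, with the SD among replicates as the cut. Leaving out 1 array of 3 cannot move a difference past that cut, so its 1944 values, all within it, say nothing about stability. The other settings left 601 within it, moved 43 and reversed 4. With values under background raised to it, PRRX1 in LIM1215 became 0.39 (resistant minus parental) and -0.28 (withdrawal minus resistant), and CDH11 became 0.36 in SW48 (resistant minus parental) and -0.28 in LIM1215 (withdrawal minus resistant), so no direction is drawn between groups near background. With the arrays of 1 line alone, 1230 genes (resistant minus parental) and 2227 genes (withdrawal minus parental) were called in LIM1215 and 380 in SW48 (withdrawal minus parental), with 27 pathway genes for withdrawal minus parental LIM1215 and 3 of the 8 genes for SW48. The trend and robust model called 2 of the 8 there. Equal medians, quantile normalization and the replicate block each called 1 of the 8 in withdrawal minus parental LIM1215; the block changed no other count of calls by over 1.5 times, and it is no paired result because the numbers did not pair the samples. Over arrays left out, withdrawal minus parental calls ranged over 2260 to 5019 genes, 29 to 67 pathway genes and 1 to 2 of the 8 in LIM1215. They ranged over 448 to 1099 genes, 7 to 20 pathway genes and 1 to 2 of the 8 in SW48, and over 9 to 21 pathway genes and 0 to 1 of the 8 in Caco2. Of 189 named pathway calls, 146 held under all 34 alternatives and 43 were lost under some; the cause was not tested. The dim-gene filter kept 10464 genes. In each contrast 3 to 4 of the 8 genes were near background in both groups, which limits what can be said of them. Where only 1 group was near background, as for PMEPA1, PRRX1 and NPNT between resistant and parental SW48, the fold is a lower bound.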
